A study of Mus musculus with 24 samples.

Results

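Hindlimb casting holds a muscle still without cutting its nerve. The comparison described here is that of 8 casted with 8 uncasted mice that all received water, and it covers the transcriptome of the gastrocnemius, a calf muscle of mixed, mostly fast fibres. All 16 were male C57BL/6J mice, 12 weeks old by their labels and 10 weeks old when the study began, and all received sterilized water intraperitoneally 2 times a day for 8 days. In the casted group both hindlimbs were immobilized with casting material for these 8 days, and the uncasted group had no cast. Each mouse gave 1 library of poly-adenylated RNA. Casted mice treated with the peptide MOTS-c make up the other 8 of the 24 libraries of the series and are not compared here. Of 55487 genes in the deposited tables, the 13952 with a TPM (a length-corrected share of a library's transcripts) of at least 0.5 in at least 8 of the 16 libraries were tested. All of them count as members, whatever their change. The genes usually named in disuse (ubiquitin ligases and FoxO targets, proteasome subunits, oxidative phosphorylation) made up 187 of those tested, and the account below is mainly about the others.

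A muscle fibre that is not loaded loses protein, as breakdown outruns synthesis. Its transcriptome is dominated by a small number of very abundant messengers for contractile proteins and energy enzymes, so a change in a few of them moves the share left to all others. Fibres also respond to loss of stretch and of activity through mechanosensitive proteins at the Z-disc and the costamere, through calcium handling, and through a gene programme shared with denervation.

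The casted libraries were not alike, which bears on every result. Most of the variance (60.9%) was along principal component 1, on which scores lay between -33.0 and -31.5 in the uncasted and between 13.3 and 44.7 in the casted libraries. Casted replicates 1 to 4 lay at 13.3 to 33.0 and casted replicates 5 to 8 at 38.0 to 44.7, farther from the uncasted libraries. The sources used here do not say what differed between these casted mice. Each result was therefore also computed with casted replicates 1 to 4 and with 5 to 8 alone, and these values are given where they change the call of a gene named, move a called change by over 1.5 times, turn the balance of a list's calls or move 1 of its counts by over 1.5 times and more than 1 gene. No 2 libraries looked like a repeat deposit, with at most 0.58% of values equal. The tissue matched its label, since fibre genes such as Tnnt3 (fast troponin T, 32656 ± 2822 scaled TPM, mean ± SD, n = 8 here and below) and Ckm (muscle creatine kinase, 27456 ± 1299) were among the 10 most abundant genes of the uncasted libraries. Fewer cells of a type and less RNA per cell cannot be told apart in whole-muscle RNA.

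More genes passed the test than did not, so a single call says little here. At an adjusted p under 0.05 (limma, Benjamini-Hochberg over all genes tested), 8168 of 13952 genes differed, or 58.5%, with 4444 higher (31.9%) and 3724 lower (26.7%) in casted muscle. A stricter rule, a change that exceeds 1.5-fold beyond its error (the treat test of limma), called 566 genes higher (4.06%) and 477 lower (3.42%). In 1786 genes (12.8%) each casted library lay above each uncasted one, and in 1450 (10.4%) each lay below. TPM are shares, and the values were scaled between libraries so that the middle of the distribution stays in place. On the deposited TPM the median gene stood 0.40 higher (log2) in casted libraries, 8924 genes (64.0%) were higher and 1121 (8.03%) lower, and 88.8% of calls were rises against 54.4% after scaling. Of the 1043 calls at 1.5-fold, 991 were outside the usual disuse genes. All 1043 kept their direction on the deposited scale, which was bound to happen, since a change of over 1.5-fold exceeds the shift between the scales. All 1043 were also called in the same direction, without a minimum fold, with casted replicates 1 to 4 and with 5 to 8, as were 5511 of the 8168. Both sets share the uncasted libraries and had a part in choosing these genes, so this is a description and no replication. Gene lists are therefore given by both rules, to be read against 31.9% and 26.7% of all genes called higher and lower, and on both scales. The median log2 change of all tested genes was 0.03 after scaling.

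The messenger pool became more even. The 10 most abundant genes of uncasted muscle, which are transcripts of mitochondrial genes, their nuclear near-copies, Tnnt3 and Ckm, held 35.4 ± 1.06% of the deposited TPM in uncasted and 26.9 ± 1.62% in casted libraries. These genes were chosen by their uncasted level, so that share is a description. Reads of the mitochondrial genes and of their near-copies may have been divided between them, so the levels of the near-copies are uncertain. Each library's own 10 most abundant genes held 35.5 ± 1.04% in uncasted and 27.3 ± 1.48% in casted libraries. That difference was -8.18 percentage points (exact permutation test, two-sided p = 0.0001554, the smallest that 8 against 8 can give), and the groups did not overlap. For the 50 most abundant genes the share went from 64.4 ± 0.96% to 48.7 ± 3.2%. Between 17 and 20 genes held 50% of all TPM in an uncasted library, and between 32 and 83 in a casted one. With casted replicates 1 to 4 the mean was 41.5 genes, and with 5 to 8 it was 68.8, against 18.9 in uncasted muscle. Of the 70 tested genes with a mean of 1000 scaled TPM or more, 54 fell and 10 rose. Of the 5145 genes between 10 and 100 scaled TPM, 2131 rose and 1302 fell. The number of genes with a TPM of at least 1 was 12109.6 ± 189.5 in uncasted and 12728 ± 206 in casted libraries, but with the same minimum on scaled TPM it was 12493 ± 76.0 and 12332 ± 158, so its direction depends on the scale.

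**Figure D1:**
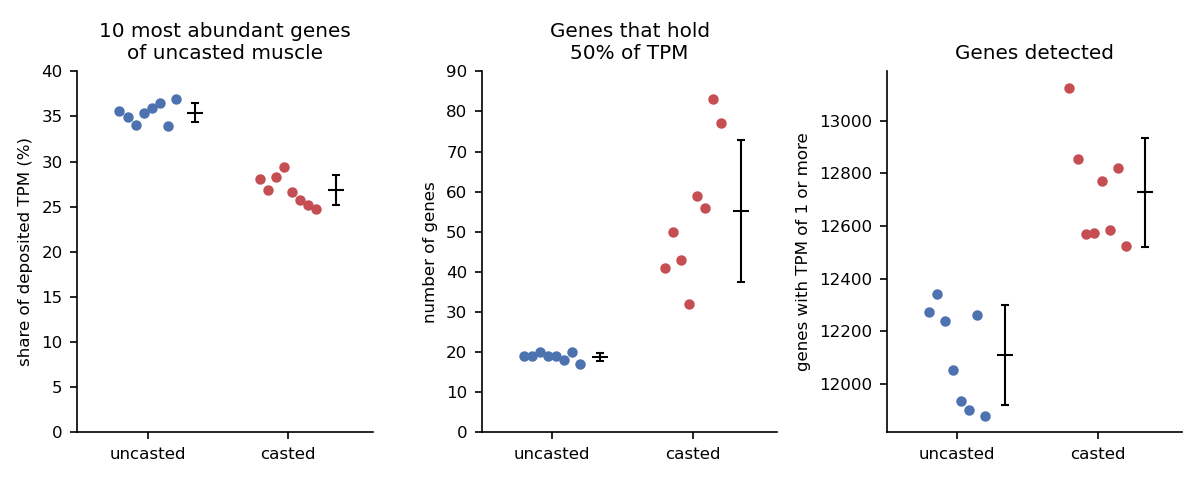
Share of deposited TPM held by the 10 most abundant genes of uncasted muscle (percent), number of genes that hold 50% of TPM, and number of genes with a TPM of at least 1, with 1 point per mouse and bars for the mean ± SD of 8; the vertical axis of the third panel does not start at 0. In the first 2 panels the casted points do not overlap the uncasted ones: 50% of TPM was held by 17 to 20 genes in uncasted and by 32 to 83 in casted libraries.

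Among single genes the change of smallest p was a rise of Cpne2 (ENSMUSG00000034361, chromosome 8, 94532990 to 94570531), which encodes a copine, a calcium-dependent phospholipid-binding protein. Its level lay between 3.59 and 5.11 scaled TPM (median 4.24) in uncasted and between 99.97 and 194 (median 106) in casted libraries. The groups were far apart and did not overlap, and the log2 change was 4.51 ± 0.12 (SE, limma adjusted p = 1.21e-14). Of the 4 copine genes tested no other passed with all libraries after this scaling. Cpne1 (-0.21) passed without uncasted replicate 1 (-0.26) or casted replicate 1 (-0.24), and with another scaling, the median of ratios (-0.23). On the deposited scale 3 of the 4 were called higher and 0 lower, and with casted replicates 1 to 4 alone 2 were higher. The ratio of Cpne2 to Cpne1 within a library, which does not depend on scaling, went from 0.740 to 24.5 (geometric means), without overlap. Panx1 (chromosome 9, 15002128 to 15045478), which encodes a membrane channel that releases ATP, lay between 5.71 and 9.36 scaled TPM (median 7.32) in uncasted and between 41.7 and 58.2 (median 47.3) in casted libraries. Its casted libraries were close to each other and all above the uncasted ones (log2 change 2.58, SE 0.092, limma adjusted p = 7.91e-13). Acsl6, which encodes a long-chain acyl-CoA synthetase, rose from 20.8 ± 2.80 to 143 ± 28.7. Ggt6, of the gamma-glutamyltransferase family, and Ect2l were near absent in uncasted muscle and rose from 0.137 ± 0.0931 to 8.81 ± 2.46 and from 0.270 ± 0.0868 to 9.25 ± 2.35. The damage-inducible gene Gadd45a lay between 21.2 and 32.6 scaled TPM (median 28.7) in uncasted and between 127 and 458 (median 300.4) in casted libraries, so that no casted library came near the uncasted range. Further rises among the largest were those of Rrad (3.07), which encodes a small GTPase that restrains calcium channels, Lgals3 (3.22), which encodes galectin-3, and Hpgd (2.97), which encodes the enzyme that inactivates prostaglandins. Krt18 (2.82), a keratin gene, Serpina3n (2.92), a serine protease inhibitor gene, and Ccdc136 (3.03) rose as well. Krt18, at most 0.428 scaled TPM in uncasted libraries, also passed the filter only through casted ones. The largest gains in mean scaled TPM included those of Des (1558 ± 85.8 to 3013 ± 349), which encodes the intermediate filament desmin, Car3 (2425 ± 292 to 3937 ± 537), which encodes carbonic anhydrase 3, and the RNA-binding protein gene Ybx3 (1448 ± 138 to 2671 ± 410.0). The non-muscle myosin light chain gene Myl12a, the chaperone gene Hsp90ab1 (1.13), the polyubiquitin gene Ubb (0.99) and the ferritin gene Fth1 (0.41) also rose.

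The falls were led by Actc1, described with the sarcomere below, and by Nrep, a small neuronal and regeneration protein gene, which lay between 134 and 153.2 scaled TPM (median 148) in uncasted and between 3.45 and 24.5 (median 6.24) in casted libraries. No casted library of Nrep reached the lowest uncasted one (log2 change -4.08, SE 0.26, limma adjusted p = 5.38e-10). Mlf1, which encodes myeloid leukemia factor 1, fell from 332 ± 32.4 to 62.8 ± 15.04, and Cmbl, which encodes a hydrolase, from 73.3 ± 4.16 to 14.7 ± 8.01. Fgfbp1, which encodes a secreted carrier of fibroblast growth factors, fell from 11.4 ± 2.67 to 1.005 ± 0.438. Lynx1, which encodes a brake on nicotinic acetylcholine receptors, lay between 39.5 and 53.7 scaled TPM (median 47.97) in uncasted and between 6.02 and 13.7 (median 9.33) in casted libraries. The casted range of Lynx1 was wholly below the uncasted one (log2 change -2.25, SE 0.13, limma adjusted p = 1.43e-10). Signalling enzymes also fell: Map2k6 (-2.18), which activates p38 kinases, and Pde4a (-2.14), which breaks down cyclic AMP. Dhrs7c (-2.07), a dehydrogenase of the sarcoplasmic reticulum, Oxct1 (-1.77), the enzyme that lets muscle burn ketone bodies, and Mtfp1 (-1.55), a mitochondrial fission protein, had some of the smallest p-values among falls. Nmrk2 (-2.19), which makes a precursor of NAD, fell with groups that overlapped, and its change was -1.216 with casted replicates 1 to 4 and -3.13 with 5 to 8. Ighm, the immunoglobulin mu heavy chain gene of B lineage cells, fell from 63.2 ± 10.4 to 12.7 ± 4.08.

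**Figure D2:**
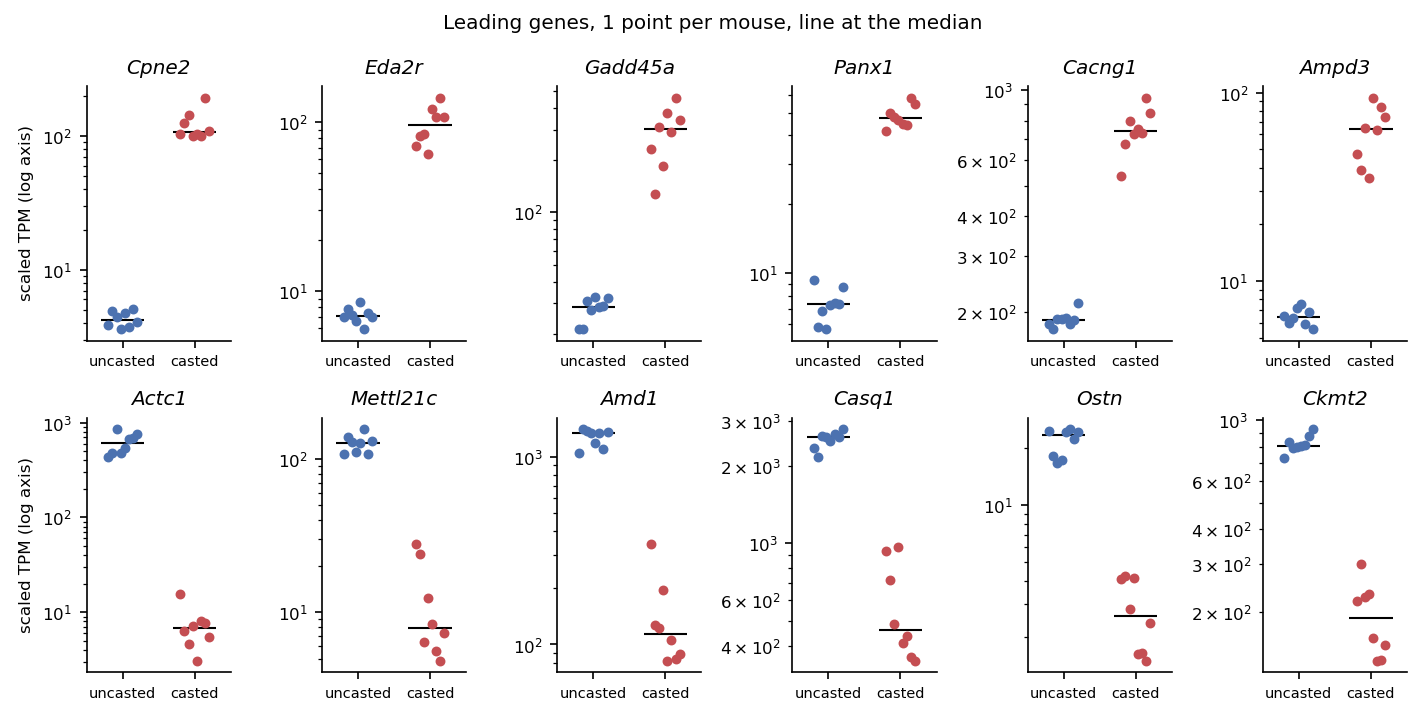
Scaled TPM (log axis) of 12 genes, with 1 point per mouse and a line at the median of each group of 8. The casted points lie above the uncasted ones for Cpne2, Eda2r, Gadd45a, Panx1, Cacng1 and Ampd3 in the upper row and below them for Actc1, Mettl21c, Amd1, Casq1, Ostn and Ckmt2 in the lower row, with no overlap in any panel.

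The machinery that makes ribosomes and proteins mostly rose. Of 64 ribosome biogenesis genes tested 60 rose and none fell, with a median log2 change of 0.56, and 16 were called at 1.5-fold (background 4.06%). On the deposited scale all 64 were higher. Of 51 translation factors 40 rose and 2 fell (median 0.58, 8 at 1.5-fold), and of 23 aminoacyl-tRNA synthetase genes 18 rose and 2 fell (median 0.49, 2 at 1.5-fold). On the deposited scale the counts were 49 higher and 0 lower, and 22 higher and 1 lower. The median of translation factors was 0.38 with casted replicates 1 to 4 and 0.77 with 5 to 8.

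At the top of ribosome production stands the transcription factor Myc. It lay between 2.67 and 4.42 scaled TPM (median 3.78) in uncasted and between 9.66 and 20.01 (median 15.8) in casted libraries, with no overlap between groups (log2 change 1.79, SE 0.11, limma adjusted p = 4.61e-10). Nucleolin (Ncl), which binds nascent ribosomal RNA, rose from 109.7 ± 6.25 to 251 ± 42.4, and Pes1, which processes the large subunit RNA, from 23.5 ± 0.668 to 52.3 ± 9.29. Nop14 (1.53), Wdr43 (1.37), Nhp2 (1.04) and Nop58 (0.88), all nucleolar proteins of RNA processing or modification, and Polr1e (1.07), a subunit of RNA polymerase I, rose. Among synthetases the leading gene was Vars, which charges valine tRNA and lay between 13.4 and 18.3 scaled TPM (median 15.6) in uncasted and between 54.1 and 91.5 (median 74.2) in casted libraries. Its groups were separate (log2 change 2.13, SE 0.11, limma adjusted p = 4.42e-11), and it was followed by Eprs (1.30), Hars (0.66) and Gars (0.72). The scaffold gene Aimp2 fell (-0.99, but -0.47 with casted replicates 1 to 4 and -1.48 with 5 to 8). Among initiation factors Eif4a1 (71.8 ± 3.36 to 185 ± 32.6), the helicase that unwinds leader sequences, Eif3c (85.2 ± 7.79 to 243 ± 43.4) and Eif3b (1.11), parts of the scaffold that recruits the small subunit, and Eif6 (1.18), which keeps ribosomal subunits apart, rose.

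Muscle fibres express their own versions of some parts of the translation machinery, and here the general version gained on the muscle version. Rpl3l, a muscle form of a large-subunit protein, lay between 399 and 462 scaled TPM (median 434) in uncasted and between 156 and 238 (median 199) in casted libraries. Rpl3, the general form, lay between 41.2 and 53.8 scaled TPM (median 49.7) in uncasted and between 157 and 279 (median 192) in casted libraries. Their moves were opposite (-1.13 ± 0.072 and 1.95 ± 0.10, both on either scale), and neither gene's groups overlapped. The ratio of Rpl3l to Rpl3 within a library went from 8.89 to 1.03, with the highest casted ratio below the lowest uncasted one. The elongation factor pair behaved differently: the general Eef1a1 rose from 376 ± 11.4 to 761 ± 162, and the muscle and neuron form Eef1a2 did not pass (1056 ± 25.4 to 1076 ± 157, log2 change 0.01, SE 0.078, limma adjusted p = 0.885), though it was called higher on the deposited scale and with casted replicates 5 to 8 (0.17). The ratio of Eef1a2 to Eef1a1 went from 2.81 to 1.43, without overlap. Genes with many pseudogenes, such as Rpl3 and Eef1a1, are uncertain to the extent that reads were divided among copies. Among other pairs the ratio of Casq2 to Casq1 (slow and cardiac against fast calsequestrin) went from 0.00747 to 0.0221 and that of Kcnn3 to Kcnn1 (calcium-activated potassium channels) from 0.0578 to 0.469. The ratio of Slc2a1 to Slc2a4 (basal against insulin-responsive glucose transporter) went from 0.0159 to 0.0314, again without overlap. The ratio of Atp2a2 to Atp2a1, the slow and fast calcium pumps, overlapped between groups (0.00668 to 0.00738), as did those of Hk1 to Hk2, Ldhb to Ldha, Atp1b4 to Atp1b2 and Mettl21c to Mettl21e.

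**Figure D3:**
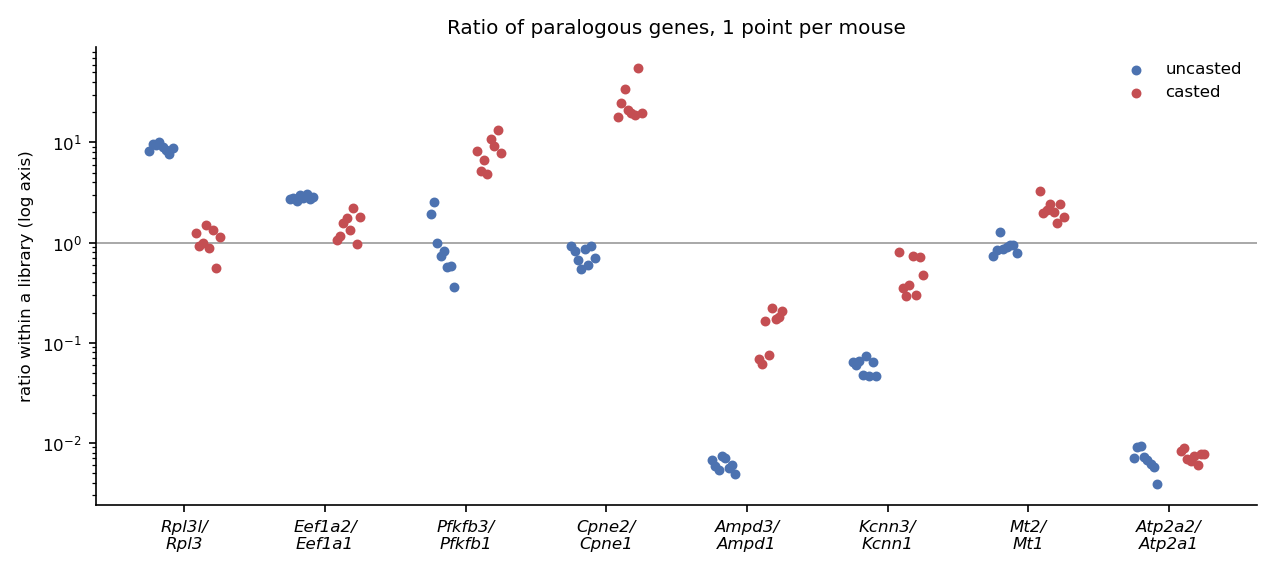
Ratio of the TPM of 2 related genes within each library (log axis), with 1 point per mouse, blue for uncasted and red for casted. For Rpl3l to Rpl3 the ratio lay near 8.89 in uncasted and 1.03 in casted muscle, and for 7 of the 8 pairs shown the groups do not overlap, the exception being Atp2a2 to Atp2a1.

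Most genes of nuclear transport, of the chaperonin for actin and tubulin and of the secretory pathway rose. Of 52 genes of nuclear transport 35 rose and 2 fell (median 0.31, 4 at 1.5-fold), led by Ranbp2 (17.8 ± 3.27 to 42.5 ± 6.20) and Tpr (64.1 ± 4.50 to 138 ± 25.9), parts of both faces of the nuclear pore, and by Ipo4 (1.12), an importin. Of 22 genes of the chaperonin TRiC, which folds actin and tubulin, and its partners 14 rose and 1 fell (median 0.26, 2 at 1.5-fold), with the subunit genes Cct2 (82.3 ± 2.88 to 162 ± 28.7), Cct4 (0.73) and Tcp1 (0.63) and the tubulin cofactor genes Tbcd (1.14) and Tbcb (0.80) rising. Of 60 secretory pathway genes 41 rose and 3 fell (median 0.31, 27 higher and 2 lower with casted replicates 1 to 4), but none passed at 1.5-fold. Examples are Srp68 (0.88), a part of the signal recognition particle, Sec63 (0.88), a part of the translocon, and Copb2 (0.97), a vesicle coat subunit. On the deposited scale 51, 22 and 57 members were higher and none lower. Of 71 spliceosome and RNA-binding genes 27 rose and 12 fell, with a median of 0.07 and no call at 1.5-fold, while without scaling 63 higher and 2 lower gave a median of 0.54 against 0.40 for all genes.

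Tubulin and microtubule motor genes rose more often than they fell, 21 against 7 of 37 (6 and 0 at 1.5-fold, 29 higher and 2 lower on the deposited scale, 14 higher and 4 lower with casted replicates 1 to 4). Tubb6, a tubulin isoform, lay between 7.85 and 10.3 scaled TPM (median 8.35) in uncasted and between 20.3 and 70.8 (median 40.3) in casted libraries. Each casted library was above each uncasted one (log2 change 2.08, SE 0.18, limma adjusted p = 2.56e-08), and Tuba1c (1.26) and Tubb4b (1.04) rose too. The dynein and dynactin genes Dync1li1 (22.6 ± 1.87 to 45.6 ± 6.37) and Dctn2 (54.8 ± 3.01 to 102 ± 13.2) and the microtubule-associated gene Map4 (257 ± 26.3 to 482 ± 57.6) rose. Dynll2 (-0.77), a dynein light chain gene, fell, and Tuba8 (-0.70) fell after scaling but was not called on the deposited TPM.

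Beyond the ligases and the proteasome, genes of the ubiquitin pool and of unfolding before degradation rose more often than they fell. Of 67 such genes 35 rose and 8 fell (6 and 1 at 1.5-fold, 60 higher and 2 lower on the deposited scale, 36 higher and 13 lower with casted replicates 5 to 8). The largest rises were those of Ubxn4 (36.96 ± 5.63 to 166 ± 42.3) and Nploc4 (35.1 ± 3.91 to 138 ± 31.3), which direct the unfolding enzyme p97 to ubiquitinated proteins, while p97 itself (Vcp) rose less (0.53). Usp14 (40.9 ± 1.54 to 84.9 ± 9.92), a ubiquitin protease of the proteasome, rose, as did Uchl1 (1.80) and Faf1 (0.85).

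**Figure D4:**
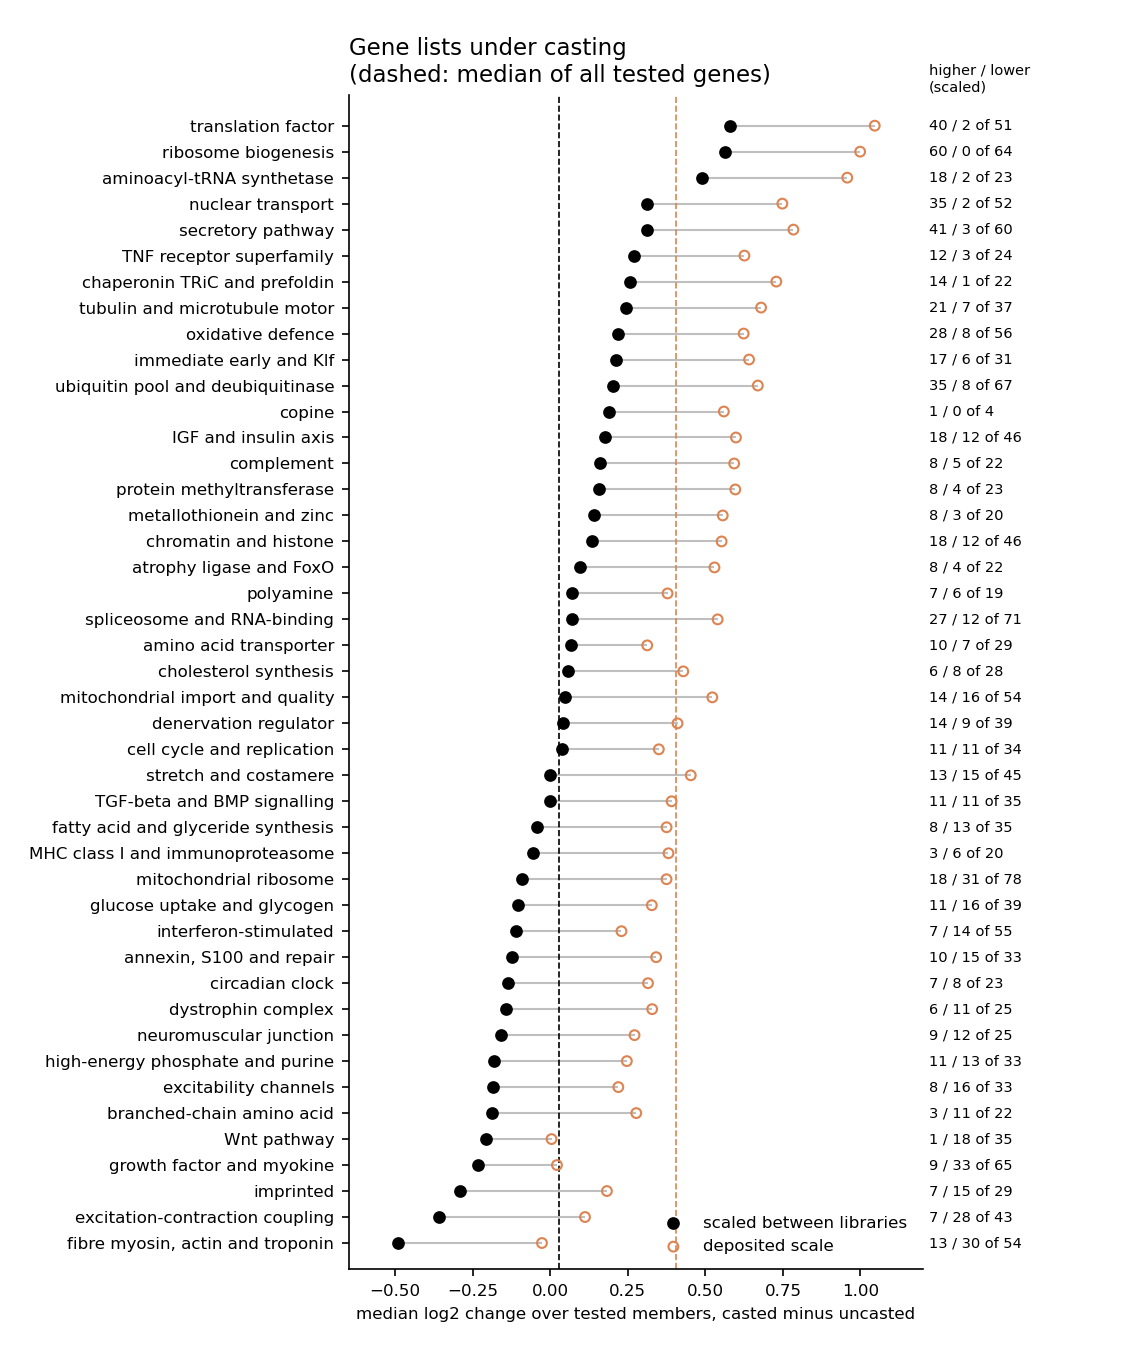
Median log2 change over the tested members of each of 44 gene lists, casted minus uncasted, after scaling (filled) and on the deposited scale (open), with dashed lines at the medians of all tested genes (0.03 and 0.40) and, at the right, the members called higher and lower after scaling. Translation factors, ribosome biogenesis and aminoacyl-tRNA synthetases stand at the top on both scales, and fibre myosin, actin and troponin at the bottom on both.

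Polyamines (putrescine, spermidine and spermine) are small cations needed for translation. Their synthesis showed opposite moves at successive steps. Odc1, which encodes the enzyme that makes putrescine, lay between 80.7 and 136 scaled TPM (median 121) in uncasted and between 187 and 344 (median 238) in casted libraries. Amd1, which encodes the enzyme that supplies the aminopropyl group for the later steps, lay between 1042 and 1403 scaled TPM (median 1335) in uncasted and between 81.8 and 343 (median 114) in casted libraries. The groups were separate for both genes, Odc1 upward (log2 change 1.09, SE 0.12, limma adjusted p = 5.17e-07) and Amd1 downward (log2 change -3.30, SE 0.23, limma adjusted p = 1.30e-09). The copy Amd2 (21.2 ± 1.78 to 2.59 ± 2.04) also fell, but reads of Amd1 and Amd2 may have been divided between them. Srm, the spermidine synthase gene, rose from 5.30 ± 0.570 to 14.9 ± 3.89, and Smox, which encodes an oxidase that turns spermine back to spermidine, fell from 378 ± 56.8 to 62.8 ± 38.6. Atp13a3 (1.30), which encodes a polyamine transporter, rose. Eif5a, the translation factor that carries the spermidine-derived residue hypusine, rose by 0.55, and Dhps, which starts that modification, by 0.78. Of all 19 polyamine genes 7 rose and 6 fell (3 and 3 at 1.5-fold, 13 higher and 3 lower on the deposited scale).

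Protein methyltransferase genes moved both ways, and the largest falls were in genes of muscle. Mettl21c lay between 107.1 and 157 scaled TPM (median 128) in uncasted and between 4.83 and 27.9 (median 7.89) in casted libraries, with wide spread among casted mice and no overlap. It encodes a lysine methyltransferase of muscle. Its neighbour in the family, Mettl21e (-1.24), and Smyd1 (263 ± 11.8 to 126 ± 32.2), a lysine methyltransferase needed for the sarcomere, also fell. Smyd2 (0.77), Prmt1 (0.54), Mettl21a (0.90) and Eef1akmt4 (1.27, but 0.81 with casted replicates 1 to 4), a methyltransferase of elongation factor 1 alpha, rose. Of the 23 genes listed 8 rose and 4 fell (1 and 3 at 1.5-fold, 19 higher and 3 lower on the deposited scale), with a median of 0.16. These counts stand beside 31.9% of all genes called higher and 26.7% called lower.

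Metallothioneins are small proteins that bind zinc and copper. Their genes are switched on by glucocorticoids and by metals, the latter through elements near the start site. In mouse, Mt1 and Mt2 lie side by side on chromosome 8. Since both genes moved, the bases before their start sites are shown here (RefSeq, GRCm38.p6, plus strand, chr8:94172368-94172617 and chr8:94178839-94179088). Matches to TGCNCNC on either strand are in capitals. This pattern is looser than the usual core of the metal response element, TGCRCNC (R for A or G), which not every match meets.
Mt2: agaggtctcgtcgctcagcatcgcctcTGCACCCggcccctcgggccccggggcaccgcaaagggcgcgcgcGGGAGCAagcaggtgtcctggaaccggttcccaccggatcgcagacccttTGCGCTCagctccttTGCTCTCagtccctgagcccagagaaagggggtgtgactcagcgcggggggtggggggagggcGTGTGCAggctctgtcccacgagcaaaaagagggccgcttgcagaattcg
Mt1: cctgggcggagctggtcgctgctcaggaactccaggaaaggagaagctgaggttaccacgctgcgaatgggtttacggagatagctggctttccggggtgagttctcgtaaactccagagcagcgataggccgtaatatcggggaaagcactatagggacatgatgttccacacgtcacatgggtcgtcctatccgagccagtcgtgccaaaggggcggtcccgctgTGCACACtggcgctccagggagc
These 250 bases held 5 matches for Mt2 and 1 for Mt1. For a gene with several windows, the window with the most matches was shown and counted. At least 1 match was present in 47.2% of 27025 genes with such a window, in 72.2% (13 of 18) of the metallothionein and zinc genes with one, and 5 or more in 0.392% of genes. A match is a description of letters and no evidence of binding.

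Mt2 lay between 9.20 and 42.5 scaled TPM (median 31.4) in uncasted and between 161 and 1181 (median 338) in casted libraries. Mt1 lay between 11.2 and 44.6 scaled TPM (median 34.1) in uncasted and between 49.5 and 584 (median 191) in casted libraries. No casted library was as low as any uncasted one for either gene, but both varied widely among casted mice, and their log2 changes were 3.90 ± 0.39 (SE, limma adjusted p = 1.43e-07) and 2.67 ± 0.41 (SE, limma adjusted p = 2.18e-05). The change was 3.26 for Mt2 and 1.88 for Mt1 with casted replicates 1 to 4, and 4.56 and 3.47 with 5 to 8. The ratio of Mt2 to Mt1 within a library went from 0.904 to 2.15, without overlap. Other zinc genes moved less. Slc39a14 (1.25), a zinc and iron importer gene, rose from 6.20 ± 1.29 to 20.1 ± 16.4 with overlapping groups, and did not pass with casted replicates 1 to 4 (0.44, against 2.07 with 5 to 8). Slc30a2 (-0.80), a zinc exporter gene, fell. Mtf1, the metal-sensing transcription factor, was at 0.05 and did not pass. Of 20 genes 8 rose and 3 fell (2 and 0 at 1.5-fold, 16 higher and 1 lower on the deposited scale).

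Genes of oxidative defence rose more often than they fell, 28 against 8 of 56 (6 and 1 at 1.5-fold, 48 higher and 3 lower on the deposited scale). Gstm2, a glutathione transferase gene, rose from 46.5 ± 3.67 to 108 ± 11.7, Txn1 (thioredoxin) from 37.1 ± 1.71 to 80.95 ± 9.93 and Nqo1, a quinone reductase gene, from 17.9 ± 1.05 to 45.2 ± 8.35. The cytosolic superoxide dismutase gene Sod1 rose (223 ± 22.9 to 436 ± 66.8) and the mitochondrial Sod2 fell (218 ± 9.10 to 138 ± 6.61), each on both scales and without overlap. Gpx4 (0.78) and Gpx3 (1.06), glutathione peroxidase genes, and Nfe2l1 (0.94), a transcription factor of proteasome and antioxidant genes, rose. Gsta4 (-1.18) and Selenow (-0.87), a selenoprotein gene, fell.

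Proteins of the Z-disc and costamere anchor the sarcomere to the membrane and sense stretch. Their genes split. Of 45 members 13 rose and 15 fell (7 and 2 at 1.5-fold, 25 higher and 5 lower on the deposited scale, 13 higher and 12 lower with casted replicates 1 to 4). Besides Des, the Z-disc genes Pdlim3 (398 ± 40.7 to 1249 ± 187) and Nrap (436 ± 42.1 to 1253 ± 294), the actin cross-linker gene Flnc (100.9 ± 8.62 to 318 ± 158) and the adhesion gene Tln1 (1.21) rose. Ankrd1, a stretch-responsive Z-disc gene, lay between 3.44 and 14.3 scaled TPM (median 5.04) in uncasted and between 47.2 and 233 (median 75.7) in casted libraries, wide in the casted group and above every uncasted library. Itgb1bp2, which encodes melusin, a partner of integrin, lay between 98.4 and 135 scaled TPM (median 116) in uncasted and between 20.6 and 42.5 (median 22.6) in casted libraries. All casted libraries of Itgb1bp2 were below the uncasted ones (log2 change -2.13, SE 0.13, limma adjusted p = 3.03e-10), and Pdlim7 (291 ± 25.8 to 146 ± 20.1), Ldb3 (-0.94) and Tcap (-0.64), further Z-disc genes, fell. Genes of the dystrophin complex, which links the fibre to its matrix, and other muscular dystrophy genes also split. Of 25 in this list 6 rose and 11 fell (0 and 2 at 1.5-fold, but 14 higher and 5 lower on the deposited scale, and 3 higher and 10 lower with casted replicates 1 to 4). Within the complex Sspn (-0.79) fell, and Dmd (0.58) and Sgca (0.53) rose. Outside it Ano5 (-1.004) and Capn3 (-0.89) fell, and Dysf (0.65) rose.

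Sarcomere genes fell more often than they rose. Of 54 genes of fibre myosins, actins, troponins and their partners 13 rose and 30 fell, with a median of -0.49 (2 and 14 at 1.5-fold). On the deposited scale the numbers were 22 higher and 22 lower, with a median of -0.03, below that of all genes there. The actin genes Actc1 (cardiac) and Acta1 (skeletal) were among the falls, and both carry a CArG box, the element bound by serum response factor, within 250 bases before the start site. It is in capitals in the RefSeq sequences of GRCm38.p6 (minus strand, chr2:114052876-114053125 and chr8:123894776-123895025), read toward the start.
Actc1: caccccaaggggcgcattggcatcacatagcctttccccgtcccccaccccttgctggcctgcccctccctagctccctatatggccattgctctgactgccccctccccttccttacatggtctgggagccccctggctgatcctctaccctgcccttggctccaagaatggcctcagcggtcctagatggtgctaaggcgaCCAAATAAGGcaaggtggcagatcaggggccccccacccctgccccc
Acta1: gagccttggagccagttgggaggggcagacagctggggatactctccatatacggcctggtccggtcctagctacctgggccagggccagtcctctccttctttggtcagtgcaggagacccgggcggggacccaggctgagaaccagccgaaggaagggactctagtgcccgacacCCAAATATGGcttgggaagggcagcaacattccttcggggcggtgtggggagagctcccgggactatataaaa
A CArG box, searched on both strands, was present in 1.62% of 27025 genes with such a window and in 11.4% (5 of 44) of the sarcomere genes with one, which besides the actin pair were Myh4, Myl3 and Myom1. Among stretch and costamere genes it was present in 11.8% (4 of 34).

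Actc1 lay between 439 and 854 scaled TPM (median 609.9) in uncasted and between 3.08 and 15.5 (median 6.77) in casted libraries. Acta1 lay between 25855 and 29142 scaled TPM (median 27219.5) in uncasted and between 6331 and 10193 (median 8664) in casted libraries. For both genes the casted range was wholly below the uncasted one. Actc1 fell far more (log2 change -6.29, SE 0.21, limma adjusted p = 5.22e-13) than Acta1 (log2 change -1.74, SE 0.096, limma adjusted p = 1.07e-10), and the ratio of Actc1 to Acta1 went from 0.0219 to 0.000805, without overlap. Myl1 (19718 ± 2182 to 5926 ± 1660.3) and Myl3 (333 ± 20.4 to 86.1 ± 24.01), essential light chains of fast and slow myosin, fell. Against this direction Myl12a (252 ± 21.3 to 1051 ± 169.9) and Myh14 (15.2 ± 1.224 to 71.3 ± 16.4), non-muscle myosin genes, Mypn (0.72), a Z-disc gene, and Tnnt2 (3.24 ± 0.686 to 7.005 ± 1.91), the cardiac troponin T gene, rose. Myl12a overlaps exons of Myom1 on the other strand, so the values of both are uncertain.

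Excitation-contraction coupling turns the action potential of the fibre into calcium release. Its genes mostly fell: of 43, 28 fell and 7 rose (8 and 3 at 1.5-fold), with a median of -0.36, although on the deposited scale the median was 0.11 with 16 higher and 9 lower calls. Casq1, the calcium store protein of fast fibres, lay between 2160.0 and 2783 scaled TPM (median 2587) in uncasted and between 349 and 970.1 (median 459.8) in casted libraries. Jph2, which ties the sarcoplasmic reticulum to the transverse tubule, lay between 210.3 and 259 scaled TPM (median 243) in uncasted and between 42.9 and 106.7 (median 56.8) in casted libraries. Neither gene's groups overlapped, and the log2 changes were -2.23, SE 0.19, limma adjusted p = 2.33e-08, and -1.91, SE 0.15, limma adjusted p = 9.75e-09. Srl (639 ± 39.6 to 320.0 ± 44.98), a calcium-binding protein of the reticulum, the calcium buffer gene Pvalb (-1.61), Stac3 (-0.87) and Camk2a (-1.11) fell too. The calcium channel subunit gene Cacng1 went the other way and lay between 176 and 213.5 scaled TPM (median 189) in uncasted and between 537 and 946 (median 742) in casted libraries. Its groups did not overlap (log2 change 1.97, SE 0.087, limma adjusted p = 8.03e-12). Camk2b (0.97), the kinase gene, and Sln (3.38), whose peptide slows the calcium pump, also rose.

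Genes of membrane channels and pumps moved both ways. The potassium channel genes Kcnk5 (0.748 ± 0.196 to 7.46 ± 2.97), Kcnn3 (0.641 ± 0.155 to 4.79 ± 1.87) and Kcnq5 (4.37 ± 0.477 to 17.6 ± 5.17) and Abcc8 (1.35 ± 0.333 to 7.62 ± 2.23), which encodes a regulatory subunit, rose. Those of the sodium channel subunit Scn4b (134 ± 10.4 to 58.9 ± 9.61), the sodium pump subunit Atp1b2 (164 ± 11.8 to 56.3 ± 19.9) and the potassium channel Kcnj12 (30.6 ± 4.15 to 14.4 ± 2.23) fell. In these 7 genes the groups did not overlap, and all were called on both scales. Of 33 channel and pump genes 8 rose and 16 fell (4 and 6 at 1.5-fold, 17 higher and 10 lower on the deposited scale).

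Regulators tied to a muscle's loss of its nerve moved both ways in casted mice. Runx1, a transcription factor of denervated muscle, lay between 0.543 and 1.04 scaled TPM (median 0.645) in uncasted and between 5.76 and 15.99 (median 8.73) in casted libraries. Each casted library was above each uncasted one (log2 change 2.63, SE 0.15, limma adjusted p = 1.91e-10). Sik1 (9.13 ± 3.14 to 48.2 ± 16.6), a kinase gene, Myf6 (92.6 ± 8.66 to 287 ± 91.4), a regulator of the fibre's gene programme, Hdac4 (0.92) and Tead4 (0.99) rose, and Nr4a1 (-1.34) fell. Of 39 such regulators 14 rose and 9 fell (6 and 1 at 1.5-fold, 25 higher and 2 lower on the deposited scale), with a median of 0.04 against 0.03 for all genes. The 14 and 9 are near the shares of all genes, 31.9% and 26.7%, while the 6 rises at 1.5-fold are above the 4.06% of all genes. At the neuromuscular junction the receptor gene Chrnb1 (19.6 ± 2.60 to 52.7 ± 3.46) and the adhesion gene Ncam1 (7.56 ± 1.504 to 23.98 ± 8.63) rose, as did Musk (0.85) and Colq (1.86), whereas Ache (22.1 ± 1.83 to 9.70 ± 2.64), the acetylcholinesterase gene, and Dok7 (-1.02) fell. Of 25 junction genes 9 rose and 12 fell (5 and 1 at 1.5-fold, but 13 higher and 2 lower on the deposited scale, and 9 higher and 8 lower with casted replicates 1 to 4). Col19a1, a collagen gene, rose from 0.434 ± 0.131 to 16.8 ± 9.06. Its highest uncasted value, 0.540 scaled TPM, was below 0.5 TPM before scaling. It passed the filter only through casted libraries, which fixed its direction in advance.

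Of 31 immediate early and Klf genes 17 rose and 6 fell (3 and 0 at 1.5-fold, 23 higher and 2 lower on the deposited scale, 12 higher and 3 lower with casted replicates 1 to 4). Junb rose from 4.38 ± 1.89 to 37.2 ± 16.4 and Klf10 from 13.4 ± 2.80 to 32.99 ± 7.12, while Dusp1 (-0.87) and Klf7 (-0.61) fell. The circadian clock is a feedback loop of transcription factors that runs in muscle too. Cry2 (16.3 ± 1.222 to 31.7 ± 7.07) and Clock (6.51 ± 1.07 to 11.6 ± 1.48) rose without overlap, and Arntl (0.75, but 0.45 with casted replicates 1 to 4) rose with overlap. The output factors Dbp (80.7 ± 9.90 to 37.9 ± 15.6) and Hlf (13.4 ± 2.03 to 6.25 ± 1.31) and the target Usp2 (143 ± 12.98 to 87.0 ± 17.3) fell without overlap, and Bhlhe41 (-1.18, but -0.66 with casted replicates 1 to 4) and Noct (-1.24) fell with overlap. Of 23 clock genes 7 rose and 8 fell (1 and 3 at 1.5-fold, 14 higher and 5 lower on the deposited scale). The sources used here give no hour at which muscles were taken, and its part was not tested. An E-box (CACGTG, which reads the same on both strands) lay in the 250 bases before the start of 5 of 18 clock genes with a window (27.8%) and of 6.86% of 27025 genes. In ribosome biogenesis genes it was present in 5 of 56 (8.93%), a list added to this search after its values were seen.

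Secreted signals mostly fell. Of 65 growth factor and myokine genes 33 fell and 9 rose (10 and 4 at 1.5-fold), with a median of -0.23, and the median with casted replicates 1 to 4 was -0.14 and with 5 to 8 -0.44. On the deposited scale, 21 higher and 18 lower gave a median of 0.02, below that of all genes. Ostn, which encodes the myokine musclin, lay between 16.7 and 25.3 scaled TPM (median 23.4) in uncasted and between 1.505 and 4.21 (median 2.61) in casted libraries. The casted range was below the uncasted one (log2 change -2.62, SE 0.17, limma adjusted p = 4.74e-10). Fndc5 (42.1 ± 1.16 to 15.7 ± 3.39), the precursor of irisin, Il15 (7.11 ± 0.918 to 2.84 ± 0.527), Sema6c (-1.53) and Vegfb (-0.88) fell. Vegfd, a growth factor for lymphatic vessels, lay between 2.37 and 4.35 scaled TPM (median 3.59) in uncasted and between 12.5 and 30.1 (median 23.3) in casted libraries. Vegfd rose without overlap (log2 change 2.28, SE 0.17, limma adjusted p = 3.87e-09), and so did Angptl4 (1.23) and Adm (2.37 ± 0.476 to 6.19 ± 1.18), which encodes the vasodilator adrenomedullin. Of 35 Wnt pathway genes 18 fell and 1 rose (median -0.21, 3 and 0 at 1.5-fold), but the calls were 10 higher and 7 lower on the deposited scale. Frzb (5.11 ± 0.644 to 1.10 ± 0.234), a secreted antagonist, the ligands Wnt9a (5.41 ± 0.335 to 2.71 ± 0.458) and Wnt5a (-0.98) and the receptor Fzd9 (-0.73) fell on both scales.

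Among receptor and transducer genes rises outnumbered falls in the TNF receptor list, and other lists were more even. Of 24 genes of the TNF receptor superfamily and its adaptors 12 rose and 3 fell (6 and 0 at 1.5-fold, 17 higher and 1 lower on the deposited scale). Eda2r, the receptor of ectodysplasin A2, lay between 5.92 and 8.60 scaled TPM (median 7.11) in uncasted and between 64.97 and 139.5 (median 95.5) in casted libraries, with groups far apart. Tnfrsf23, a decoy receptor, rose from 2.84 ± 0.596 to 30.9 ± 6.51, its near-copy Tnfrsf22 from 1.46 ± 0.497 to 4.60 ± 1.44 (reads may have been divided between these), and Map3k14, the kinase of the non-canonical NF-kB route, from 2.06 ± 0.334 to 23.7 ± 10.2. Nfkb2, the NF-kB subunit of that route, rose from 4.31 ± 0.312 to 51.7 ± 15.9. Ltbr (0.75), Traf2 (0.82) and Traf3 (0.96) rose too. In the insulin and IGF axis Akt1 lay between 26.1 and 29.4 scaled TPM (median 27.7) in uncasted and between 79.5 and 143 (median 108) in casted libraries. Akt1 rose without overlap (log2 change 1.87, SE 0.10, limma adjusted p = 1.17e-10), and Mtor (0.86), Igf2r (0.75) and Pdpk1 (0.64) rose by less. Grb14 (15.6 ± 1.68 to 3.87 ± 1.49), an adaptor that blocks the insulin receptor, and Irs1 (-0.94) fell. Of 46 genes of this axis 18 rose and 12 fell (1 and 3 at 1.5-fold, 32 higher and 5 lower on the deposited scale). Of 35 genes of TGF-beta and BMP signalling 11 rose and 11 fell (2 and 2 at 1.5-fold, 21 higher and 3 lower on the deposited scale). Tgif1 (4.38 ± 0.804 to 26.6 ± 9.92), a corepressor gene, and the receptor gene Tgfbr1 (1.41) rose.

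Fuel genes outside oxidative phosphorylation changed in composition. Ampd3, an AMP deaminase gene, lay between 5.55 and 7.54 scaled TPM (median 6.46) in uncasted and between 35.2 and 94.2 (median 64.1) in casted libraries. Its groups did not overlap (log2 change 3.02, SE 0.17, limma adjusted p = 1.07e-10), and the muscle isoform Ampd1 fell from 1071 ± 80.8 to 475 ± 124, so the ratio of Ampd3 to Ampd1 went from 0.00605 to 0.128. Ak1 (adenylate kinase, 1084 ± 53.1 to 396 ± 74.4), Ckmt2 (mitochondrial creatine kinase, 821 ± 59.6 to 194 ± 59.4), Gamt (12.02 ± 2.23 to 2.62 ± 1.65), which makes creatine, and Nt5c1a (-1.64) fell, while Impdh2 (0.998) and Hprt (0.71) of purine synthesis and salvage rose. Of 33 genes 11 rose and 13 fell (2 and 7 at 1.5-fold, but 18 higher and 8 lower on the deposited scale). Among glycogen genes, Phkg1 (the catalytic subunit of phosphorylase kinase, 487 ± 16.8 to 173.2 ± 43.1) and Pygm (4565 ± 269.7 to 2688 ± 270.4), which act in breakdown, fell. Pgm1 (815 ± 23.2 to 420.1 ± 80.6), which acts in breakdown and synthesis, fell too. Members of synthesis and lysosomal turnover that rose were Gbe1 (24.4 ± 2.04 to 56.1 ± 9.86), Gyg (0.75), Gaa (1.06) and Stbd1 (0.98). These are single members and no count of either direction of glycogen metabolism. Of all 39 glucose uptake and glycogen genes 11 rose and 16 fell (4 and 4 at 1.5-fold, but 22 higher and 9 lower on the deposited scale). Pfkfb1, the muscle and liver regulator of glycolytic flux, fell from 54.7 ± 5.29 to 22.2 ± 4.32, and Pfkfb3 rose from 55.8 ± 35.7 to 178 ± 47.6 with overlapping groups, but their ratio (Pfkfb3 to Pfkfb1, 0.880 to 7.86) did not overlap. Lpin2, a phosphatidate phosphatase gene, rose from 1.74 ± 0.435 to 17.03 ± 9.16 and Pnpla2, the main triglyceride lipase gene, from 135.9 ± 13.5 to 292 ± 89.7 (log2 change 1.04, but 0.65 with casted replicates 1 to 4). Slc15a4 (8.11 ± 2.19 to 38.02 ± 10.4), a lysosomal peptide and histidine transporter gene, and Slc7a5 (0.98), a leucine importer gene, rose, and Slc38a3 (-1.05), a glutamine transporter gene, fell.

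Imprinted genes fell more often than they rose, 15 against 7 of 29 (4 and 1 at 1.5-fold, but 6 and 13 on the deposited scale). Meg3 and Rian, long noncoding RNAs transcribed from the maternal copy of 1 cluster on chromosome 12, fell from 26.7 ± 6.55 to 9.66 ± 2.68 and from 15.1 ± 1.61 to 6.09 ± 1.53. Snrpn, a spliceosome protein gene expressed from the paternal copy that shares exons with a second gene, lay between 23.4 and 27.9 scaled TPM (median 25.8) in uncasted and between 9.65 and 13.2 (median 10.9) in casted libraries and had one of the smallest p-values among falls (log2 change -1.16, SE 0.060, limma adjusted p = 5.03e-11). Impact (1.08) and Igf2r rose. By annotated class, 271 intergenic long noncoding RNAs had 98 falls and 62 rises (31 and 11 at 1.5-fold), and 229 antisense RNAs 72 and 53 (24 and 11). Among 12080 protein-coding genes 4024 rose and 3214 fell (517 and 388 at 1.5-fold).

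Regulators of the cell cycle and of chromatin included large single changes. Rb1, the retinoblastoma gene, rose from 9.56 ± 0.863 to 48.3 ± 12.8, with each casted library above each uncasted one. Cdkn1a (8.62 ± 3.08 to 30.7 ± 7.73) and E2f4 (0.73), which also restrain division, rose, and the division genes Aurka (-1.09) and Tk1 (-0.82) fell. Of 34 cell cycle genes 11 rose and 11 fell (3 and 1 at 1.5-fold, 22 higher and 4 lower on the deposited scale, 8 higher and 7 lower with casted replicates 1 to 4). H3f3b, a gene for the replication-independent histone H3.3, rose from 45.96 ± 4.14 to 122 ± 12.1. Smarca4 (0.99) and Ezh1 (1.07) rose, and Smarcd3 (-0.89), H2afz (-0.93) and Dnmt3a (-0.88) fell. Of 46 chromatin and histone genes 18 rose and 12 fell (3 and 3 at 1.5-fold, 33 higher and 5 lower on the deposited scale).

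Immune genes did not move as 1 group. Interferon-stimulated genes fell in 14 and rose in 7 of 55 cases (1 and 1 at 1.5-fold, but 23 higher and 3 lower on the deposited scale, and 5 higher and 7 lower with casted replicates 1 to 4). Ifit3b (-0.80) and Gbp7 (-1.06) fell, and Ifi30 (7.62 ± 1.02 to 28.1 ± 11.3), a lysosomal thiol reductase gene, rose. Complement genes rose in 8 and fell in 5 of 22 cases (1 and 0 at 1.5-fold, 15 higher and 0 lower on the deposited scale, 5 higher and 5 lower with casted replicates 5 to 8), with C4b (3.77 ± 0.807 to 8.90 ± 2.11) in the lead. Anxa4 rose from 8.72 ± 0.753 to 25.7 ± 2.35 and Ahnak2, a giant membrane scaffold gene, from 2.13 ± 0.362 to 7.76 ± 1.496, without overlap, whereas Cav1 (-0.89) and Cavin2 (-0.86), genes of caveola proteins, and Ehd2 (-0.78) fell. Of 33 annexin, S100 and membrane repair genes 10 rose and 15 fell (5 and 0 at 1.5-fold, but 17 higher and 5 lower on the deposited scale), and the balance turned to 13 higher and 9 lower with casted replicates 1 to 4.

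Markers of other cells moved with casting as well. Of 15 macrophage markers 11 rose and none fell, with a median of 0.57 (0.76 with casted replicates 1 to 4 and 0.36 with 5 to 8), and their summed level was 98.8 to 134 scaled TPM in uncasted and 125 to 293 in casted libraries. At 1.5-fold 1 passed, and the deposited scale had 14 higher and 0 lower. Cd68, a lysosomal membrane protein gene of macrophages, rose from 3.62 ± 1.203 to 28.1 ± 13.2, whereas Adgre1, which encodes F4/80 and defines the lineage in mouse, did not pass (log2 change 0.33) except with casted replicates 1 to 4 (0.68, adjusted p = 0.0221 in limma) and on the deposited scale (0.63, adjusted p = 0.0172). Of 13 neutrophil and lymphocyte markers 10 stayed below the filter on low values and the other 3 rose (2 at 1.5-fold, all 3 on the deposited scale), S100a9 from 0.333 ± 0.200 to 4.39 ± 2.82 and S100a8 from 0.195 ± 0.180 to 2.11 ± 1.52 among them. S100a9 and S100a8 had uncasted means below the filter of 0.5 TPM, so they passed it at least in part through casted libraries. Fibro-adipogenic markers fell in 8 and rose in 1 of 12 cases (0 and 2 at 1.5-fold for rises and falls, 3 higher and 5 lower on the deposited scale, summed level 1076 to 1612 scaled TPM in uncasted and 653 to 1543 in casted libraries), but Pdgfra, which defines them, was at 0.03 and did not pass, and was called higher on the deposited scale (0.46). Tendon markers fell in 7 of 10 cases (none at 1.5-fold, 1 higher and 3 lower on the deposited scale, 1 higher and 2 lower with casted replicates 1 to 4), with a median of -0.84, which was -0.35 with casted replicates 1 to 4 and -1.23 with 5 to 8. The mean tendon level was lower in uncasted replicates 6 to 8 (-0.69 to -0.61 relative to the uncasted mean, log2) than in 1 to 5 (0.16 to 0.56), and the groups overlapped. Falls were called in 8 of 9 markers of smooth muscle and pericytes, 7 of 10 of Schwann cells and 10 of 12 of endothelium, none at 1.5-fold, but on the deposited scale 2 of each list were lower. Of 9 satellite cell markers 3 rose and 2 fell (1 and 0 at 1.5-fold, 4 higher and 0 lower on the deposited scale, 3 higher and 0 lower with casted replicates 1 to 4), with Cdh15 (6.89 ± 0.594 to 21.5 ± 4.87), which encodes M-cadherin, in the lead and Pax7 (-0.13), which defines these cells, not called. Of 10 adipocyte markers 3 rose and 2 fell (none at 1.5-fold, 7 higher and 0 lower on the deposited scale, 3 higher and 0 lower with casted replicates 1 to 4). Their summed level, 2206 to 3029.8 scaled TPM in uncasted and 3329 to 5041 in casted libraries, did not overlap. Car3 alone lay between 1923 and 2762 in uncasted and between 2999 and 4789 in casted libraries. This is close to the sum, which therefore does not describe the markers as a group. Erythrocyte markers did not pass in any of 5 cases, but 3 were called higher on the deposited scale. The part of such cells in the gene groups above was not tested.

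**Figure D5:**
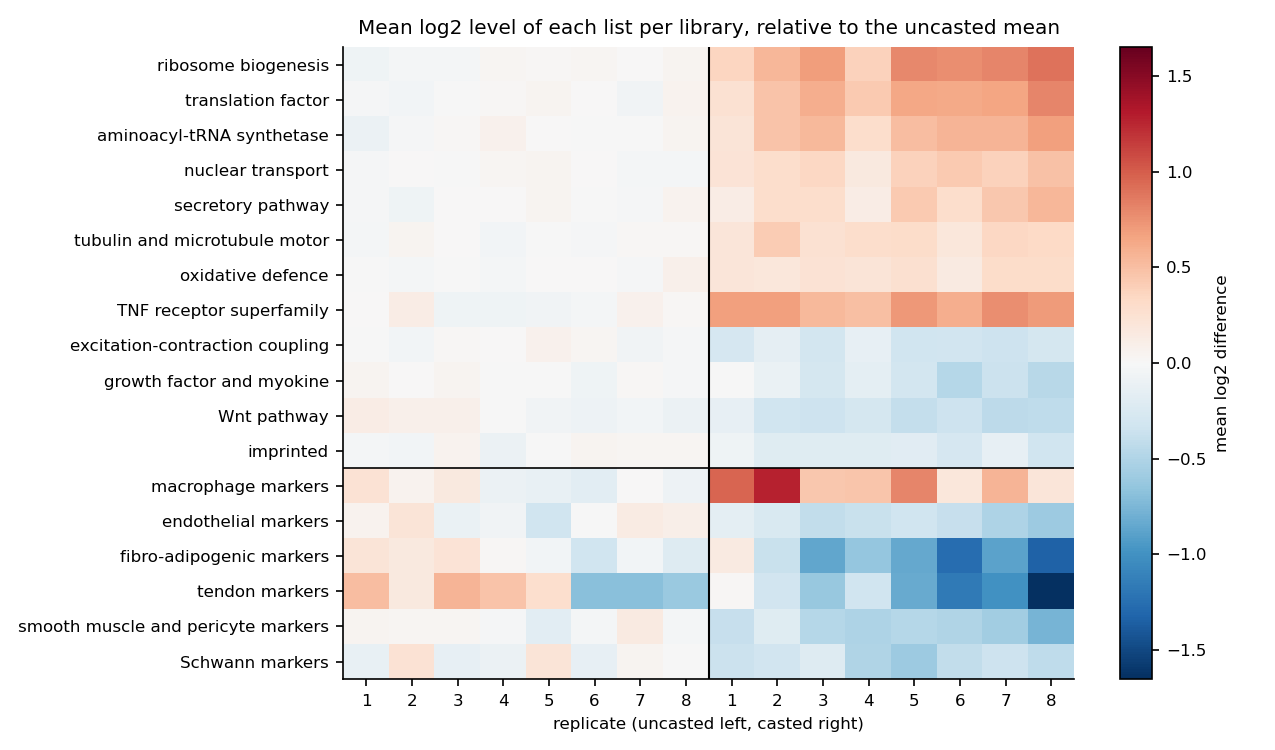
Mean log2 level of 12 gene lists and 6 sets of cell type markers in each library, relative to the mean of the 8 uncasted libraries, with colour for the difference (red higher, blue lower). Ribosome biogenesis is higher in each casted library, from 0.36 to 0.90, and macrophage markers are highest in casted replicates 1 and 2.

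A further 7 lists had at most 2 calls in either direction at 1.5-fold. Of 28 genes of cholesterol synthesis 6 rose and 8 fell. Of 54 genes of mitochondrial import and quality control 14 rose and 16 fell (8 higher and 12 lower with casted replicates 1 to 4, 21 higher and 10 lower with casted replicates 5 to 8), and of 20 MHC class I and immunoproteasome genes 3 rose and 6 fell (1 higher and 2 lower with casted replicates 1 to 4). Without scaling their calls came to 17 higher and 2 lower, 46 higher and 2 lower, and 12 higher and 0 lower. Genes of fatty acid and glyceride synthesis (8 rose and 13 fell of 35) and amino acid transporters (10 rose and 7 fell of 29) had 20 higher and 4 lower, and 18 higher and 2 lower, on the deposited scale. Genes of branched-chain amino acid breakdown fell in 11 and rose in 3 of 22 cases with none at 1.5-fold (1 higher and 12 lower with casted replicates 1 to 4, 7 higher and 8 lower with casted replicates 5 to 8), but with 13 higher and 1 lower on the deposited scale. Mitochondrial ribosome genes fell in 31 and rose in 18 of 78 cases, with Mrps36 (-1.003) falling and Mrps30 (0.77) rising, but with 61 higher and 6 lower on the deposited scale and 11 higher and 29 lower with casted replicates 1 to 4.

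Gene families were also set by symbol alone, without a choice of members. Those with the highest medians besides proteasome, ribosomal protein and Eif genes were Utp (small-subunit processome, 10 rose and 0 fell of 10, median 0.56, led by Utp18 at 1.18), Snhg (snoRNA host genes, 8 rose and 1 fell of 12, median 0.39, led by Snhg15 at 0.84), Ddx and Dhx (RNA helicases, 23 rose and 1 fell of 32 and 12 rose and 1 fell of 16, led by Ddx27 at 1.41 and Dhx29 at 0.83) and the chemokines Ccl (5 rose and 3 fell of 10, led by Ccl8 at 1.97). Those with the lowest medians besides respiratory chain and myosin genes were Col (collagens, 2 rose and 27 fell of 34, median -0.69, 4 higher and 17 lower on the deposited scale, and the tendon and fibro-adipogenic markers above moved the same way, whose part was not tested), Tspan (tetraspanins, 3 rose and 10 fell of 17, median -0.35, though its leading member Tspan17 rose by 1.42, and 4 higher and 4 lower on the deposited scale) and Asb (ubiquitin ligase adaptors, 2 rose and 9 fell of 16, median -0.26, led by Asb18 at -1.45, and 7 higher and 4 lower on the deposited scale). St (sialyl- and sulphotransferases and others, 2 rose and 11 fell of 19, led by St6galnac6 at -0.79) and Sox (2 rose and 6 fell of 10) had medians of -0.27 and -0.26, against 0.05 and 0.07 on the deposited scale.

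Where a log2 change was given without its error, its standard error in limma was between 0.045 and 0.43, and the adjusted p of each gene said to have risen or fallen was at most 0.0165. Of the genes named, 34 have exons that overlap those of another tested gene on the other strand, and without strand information in the sources used here reads of such partners cannot be told apart. The partner moved the same way by at least 0.5 (log2) and had at least 0.1 of the gene's own casted level for Dusp1, Myom1, Nmrk2, Tln1 and Tpr.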

How the data were processed

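Poly-adenylated RNA of gastrocnemius muscle was sequenced. The submitters' processing notes name FastQC, STAR, RSEM, DESeq2 and the build GRCm38.p6, with no versions. The deposited values are TPM per gene and library, and read counts were not used here, so sequencing depth is unknown and no interval from counts is given. From the deposited TPM, library scale factors were computed as an unweighted trimmed mean of log ratios (30% of ratios and 5% of levels trimmed), and lay between 0.77 and 0.90 in uncasted and between 1.04 and 1.27 in casted libraries. Genes that reached 0.5 TPM in 8 or more of the 16 libraries were tested as log2(scaled TPM + 1) with limma 3.58.1 (R 4.3.3, trend, no covariates), with Benjamini-Hochberg adjustment over all 13952. Log2 changes are on this scale and understate those of low genes. Single measures per library were compared with exact permutation tests (scipy 1.17.1). The fit was tested on simulated data.

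The comparison, its genes and the gene lists were chosen with earlier results of these data known. Genes were named by rank (the 20 largest changes each way in genes with a mean of at least 1 in the higher group, the 10 smallest p each way, the 10 largest gains and losses in TPM), by list (the 4 members of smallest p each way and members needed to describe the list), as pairs of related genes and as leading members of families that share a symbol stem. Of the 277 genes named, 40 were outside this rule and were chosen after their values were seen. A few genes that met it are not reported here. Alternatives were other scalings, pseudocounts, filters, sample sets, weights, a replicate block, a minimum fold and leaving out each library. Promoter windows and their letters are from RefSeq (GRCm38.p6), and a gene with several windows was represented by the window with the most matches.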

Additional observations from a re-analysis of the deposited data

Results flagged for a closer look

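In 37 of 560 groups of 8 libraries (6.61%), over the genes named and 3 measures of whole libraries, 1 library lay far from the other 7 by Dixon's test (for genes on the log2 scale), and chance alone gives about 1 in 20. Values are scaled TPM, with the range of the other 7 libraries in parentheses. Uncasted replicate 8 stood apart in 10 of them, with Ankrd1 at 14.3 (3.44 to 5.86), Cacng1 at 213 (176 to 191), Camk2a at 192 (239 to 278) and Cry2 at 13.5 (15.7 to 17.2). It also had Myl1 at 24445 (17438 to 20358), Nt5c1a at 5.43 (12.7 to 18.1), Pdlim7 at 347 (259 to 295) and Pvalb at 11928 (8761 to 10132). Further values of the same library were Scn4b at 111 (131 to 144) and Sspn at 35.3 (40.6 to 44.9). Casted replicate 1 stood apart in 8 of them, with Camk2b at 97.9 (120.2 to 142), Cdkn1a at 14.2 (26.1 to 38.1), Des at 2267 (2943 to 3404) and Hsp90ab1 at 1024 (1335 to 1666). It also had Nrap at 665 (1092 to 1602), Nt5c1a at 7.04 (2.997 to 4.32), Tbcb at 35.5 (46.3 to 55.5) and Ybx3 at 1833 (2514 to 3167). Uncasted replicate 1 stood apart in 4 of them, with Cpne1 at 4.17 (5.52 to 6.64), Frzb at 3.77 (4.95 to 5.997), Nr4a1 at 87.8 (122 to 149) and Vcp at 198 (219 to 239.8). Casted replicate 7 stood apart in 4 of them, with Ano5 at 25.5 (33.1 to 40.1), Atp13a3 at 70.2 (29.6 to 42.99), Mlf1 at 34.5 (56.8 to 85.4) and Rpl3 at 279 (157 to 206). Uncasted replicate 4 stood apart in 3 of them, with Abcc8 at 2.10 (1.05 to 1.44), Gamt at 7.51 (10.7 to 14.6) and Slc2a1 at 3.09 (4.35 to 5.11). Casted replicate 2 stood apart in 3 of them, with Atp1b4 at 4.98 (0.488 to 1.46), Casq2 at 29.3 (8.77 to 12.2) and Smyd1 at 200.5 (98.4 to 131). The remaining flags fell on casted replicate 3 with Frzb at 1.64 (0.925 to 1.16) and Slc30a2 at 7.54 (4.31 to 5.62), casted replicate 5 with Smarcd3 at 64.1 (70.4 to 76.5) and uncasted replicate 2 with Tgif1 at 6.21 (3.73 to 4.76). Others were uncasted replicate 5 with Wdr43 at 32.1 (24.4 to 27.5). None of the called genes named here lost its call when any 1 library was left out.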

How the results depend on the processing

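The TPM keep no depth, so whether a low gene was missed or absent cannot be judged, and p-values measure the spread between these mice. Of the 8168 genes called (4444 higher and 3724 lower), 1043 passed against a fold of 1.5 (566 and 477). The deposited TPM gave 8924 higher and 1121 lower, and a minimum of 5 TPM 2268 lower, with fewer genes tested. Other scalings, pseudocounts, weights, all 24 libraries and the sets of casted replicates moved these counts by less than 1.5 times. Leaving out 1 library gave 4222 to 4523 higher and 3523 to 3816 lower, and 7745 to 8339 in all. The number of genes with a TPM of at least 1 was higher by 617.9 in casted libraries, but lower on scaled TPM (-161.4, exact permutation test, two-sided p = 0.02222), an alternative chosen after seeing the data. On the deposited scale the direction of Atp2a2 (0.12 in place of -0.36) and Kcnn1 (0.28 in place of -0.16) turned; the cause was not tested. Of 277 genes named and tested, 267 were called, and 268 kept their side of the threshold under all alternatives run other than the deposited scale and the minimum fold. The exceptions were Adgre1, Atp1b4, Atp2a2, Casq2, Cpne1, Eef1a2, Kcnn1, Slc2a1 and Slc39a14. Among single libraries left out, Cpne1 passed without uncasted replicate 1 (-0.26) or casted replicate 1 (-0.24) and Atp1b4 without casted replicate 2 (-0.49). With a pseudocount of 0.1, changes of low genes were larger, such as 5.29 in place of 3.07 for Ggt6 and 3.81 in place of 1.97 for Ccl8.

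Casted and uncasted libraries of equal replicate number showed little likeness, which cannot decide whether the mice were paired. The correlation of same-numbered libraries' deviations lay between -0.071 and 0.228 over 8 pairs, and only that of number 1 was over 0.1. With the number as a replicate block, 8048 genes were called, 4350 higher and 3698 lower.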
